A study of Homo sapiens with 8 samples.

Results

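The 7 genes described here encode the insulin receptor (INSR), the insulin-like growth factor receptor (IGF1R), the kinase AKT1, the tuberous sclerosis proteins TSC1 and TSC2, the kinase MTOR and its partner RPTOR. They were chosen by name as members of 1 signalling route. RBM45 CLIP peaks were assigned to a gene when they shared at least 1 base with its hg19 interval on its strand. This gave 649 of the 210878 entries of replicate 1, 286 of the 65587 entries of replicate 2, and 68 of the 13758 deposited pairs of peaks found in both. An entry is 1 peak on 1 strand, with repeated rows of the files collapsed.

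Insulin and insulin-like growth factors bind receptor tyrosine kinases, which activate AKT through phosphoinositide 3-kinase. AKT phosphorylates TSC2, which with TSC1 forms the complex that keeps the small GTPase RHEB inactive. Active RHEB switches on the mTOR kinase within mTOR complex 1. There RPTOR (raptor) recruits the substrates through which the complex drives protein synthesis and restrains autophagy.

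The libraries were made by CLIP, in which RNA is cross-linked to protein by ultraviolet light (300 mJ/cm2 at 254 nm) and recovered with an antibody, here against the HA tag. Both libraries came from wild-type (WT) HEK293T cells, a transformed human embryonic kidney line, that expressed FLAG-HA-tagged human RBM45 from a lentivirus. RBM45 is an RNA-binding protein with RNA recognition motifs, and the study compared its binding in WT and METTL3 knockout cells. METTL3 is the catalytic subunit of the complex that writes m6A on messenger RNA. The 8 samples form 4 groups of 2 replicates (METTL3 knockout CLIP, METTL3 knockout input, WT CLIP and WT input), of which only the WT CLIP peak lists are used here. Tagged RBM45 was added to these cells and recovered by its tag, so the lists describe the tagged protein rather than the endogenous one. No label says whether the replicates were separate cultures.

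Depth per library, the level of each RNA and the input libraries were not analysed here. A gene's number of peaks may depend on how much of its RNA a library holds, and this was not tested. The caller's background was not identified as the input, so a listed peak is not by itself a site of RBM45 binding. Exons, introns and base sequences need an hg19 genome and were not analysed here. Other genes of the route were not analysed here for the same reason.

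Over all listed peaks, RBM45 peaks lay densest in TSC2 and AKT1 and were most numerous in RPTOR and IGF1R, while MTOR and TSC1 held few for their length. RPTOR held 268 entries in replicate 1 and 112 in replicate 2. IGF1R held 184 and 88, and INSR held 89 and 28. TSC2 held 47 and 30, and AKT1 held 27 and 8. MTOR, although it is 156 kb long, held 30 and 19. TSC1 held 4 and 1, and no pair. RPTOR and IGF1R together supplied most of the peaks of the 7 genes in both lists, and 31 and 25 of the 68 pairs. Over all listed peaks, TSC2 and AKT1 were the densest genes and MTOR and TSC1 the sparsest in both lists. Among stronger peaks of replicate 2 INSR was sparser than MTOR, with 5 against 12 entries in the stronger 50% of the list by −log10 p (0.275 and 0.769 per 10 kb) and 2 against 3 at 5-fold and above. The intervals of INSR and MTOR overlapped in both cases. At 5-fold and above in replicate 2, AKT1, with 2 entries, also lay below RPTOR in density (0.758 and 0.759 per 10 kb). In replicate 1 AKT1 lay above TSC2 at 5-fold and above (1.515 and 0.982 per 10 kb, 4 entries each). IGF1R lay above RPTOR in the stronger 50% of that list (4.47 and 4.41 per 10 kb). In both of these replicate 1 comparisons the intervals overlapped.

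Per 10 kb of gene, TSC2 had 11.5 entries in replicate 1 (exact Poisson 95% interval 8.48 to 15.3) and 7.37 in replicate 2 (4.97 to 10.5). AKT1 had 10.2 (6.74 to 14.9) and 3.03 (1.31 to 5.97). RPTOR had 6.36 (5.62 to 7.17) and 2.66 (2.19 to 3.20). These 3 genes and IGF1R took the first 4 places in both lists, with RPTOR and IGF1R in exchanged places. IGF1R had 5.83 (5.02 to 6.74) and 2.79 (2.24 to 3.44), and INSR had 4.90 (3.93 to 6.03) and 1.54 (1.02 to 2.23). MTOR followed with 1.92 (1.30 to 2.75) and 1.22 (0.733 to 1.90), and TSC1 was last with 0.751 (0.205 to 1.92) and 0.188 (0.00475 to 1.05). In each list's own order, where RPTOR stands next to INSR in replicate 2, neighbours had overlapping intervals except INSR and MTOR in replicate 1. Each interval reflects counting error alone, as if peaks were independent, and with 1 list per library no test between genes was made.

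**Figure D1:**
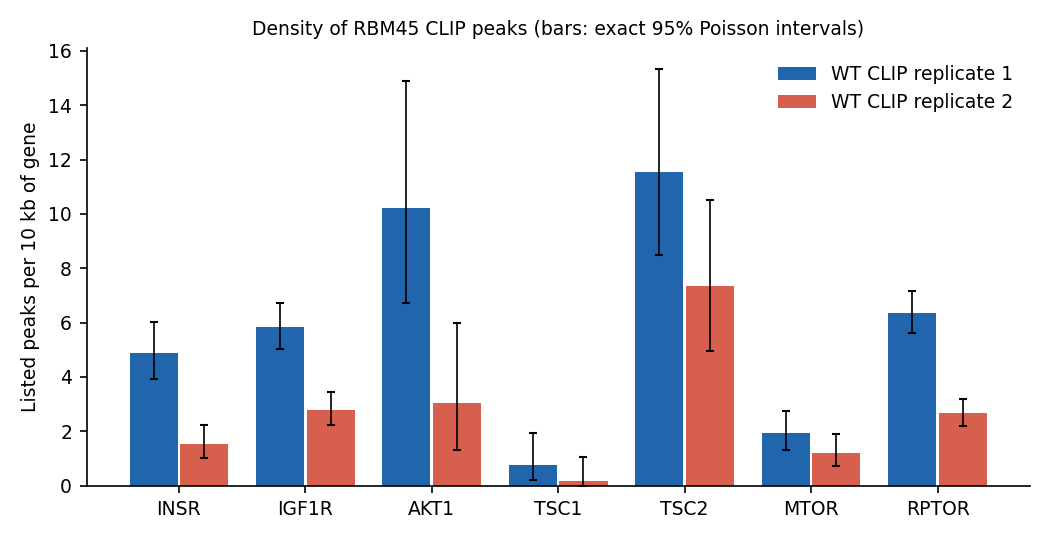
Listed peaks per 10 kb of gene (vertical axis) for each gene in the WT CLIP lists of replicate 1 (blue) and replicate 2 (red), with exact 95% Poisson intervals as error bars. TSC2 is highest in both lists, at 11.5 and 7.37, and TSC1 lowest, at 0.751 and 0.188.

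Over all listed peaks, proteins that work as partners did not come from genes with like densities of peaks. RPTOR had 3.31 times the density of MTOR in replicate 1 and 2.18 times in replicate 2, with intervals apart in both. TSC2 had 15.4 times the density of TSC1 in replicate 1, and the intervals were apart in both lists. The receptors were closer to each other. IGF1R had 1.19 times the density of INSR in replicate 1, with overlapping intervals, and 1.81 times in replicate 2, where the intervals only just parted (2.24 against 2.23). At 5-fold and above the intervals overlapped for each of these pairs of genes in both lists. In the stronger 50% by −log10 p, TSC2 and TSC1 stayed apart in both lists. RPTOR and MTOR overlapped there in replicate 2 (1.17 to 1.94 and 0.397 to 1.34 per 10 kb) but not in replicate 1. IGF1R and INSR were apart there in both lists.

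Scaled to the length of each list, the 7 genes held 30.8 of every 10000 entries in replicate 1 and 43.6 in replicate 2 (mean 37.2 ± 9.07, SD, n = 2). INSR took 4.22 and 4.27 per 10000 and AKT1 took 1.28 and 1.22, close values in both lists. For INSR this did not hold in the stronger 50% of each list, where it took 3.70 per 10000 in replicate 1 and 1.52 in replicate 2 (39 and 5 entries), while AKT1 took 1.23 and 1.52. MTOR took 1.42 and 2.90, and TSC2 took 2.23 and 4.57, larger parts of the shorter list. RPTOR took 12.7 and 17.1, and IGF1R 8.73 and 13.4. The whole lists differed 3.22-fold in length (replicate 1 over replicate 2), while the 7 genes differed 2.27-fold. Within the genes that ratio ran from 1.57 in TSC2 and 1.58 in MTOR to 3.38 in AKT1 and 4.0 in TSC1, the last from 4 entries and 1.

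In 10-kb windows counted from each gene's 5' end, 119 of 124 windows held a replicate 1 entry and 84 a replicate 2 entry. The occupied windows had a median of 5 entries in replicate 1 and 3 in replicate 2. Over the whole lists the medians were 2 and 1, in windows laid on a fixed grid of each strand. All windows of MTOR, RPTOR, TSC2, AKT1 and IGF1R held at least 1 replicate 1 entry. INSR had one in 17 of 19 windows and TSC1 in 3 of 6. The longest stretch with no peak of either list was 10.5 kb in RPTOR, 12.5 kb in IGF1R, 9.10 kb in INSR, 13.3 kb in MTOR and 14.7 kb in TSC1. Within replicate 1 alone the gaps between neighbouring peaks reached 18.5 kb in RPTOR and 19158 bases in TSC1, the longest of the 7 genes.

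**Figure D2:**
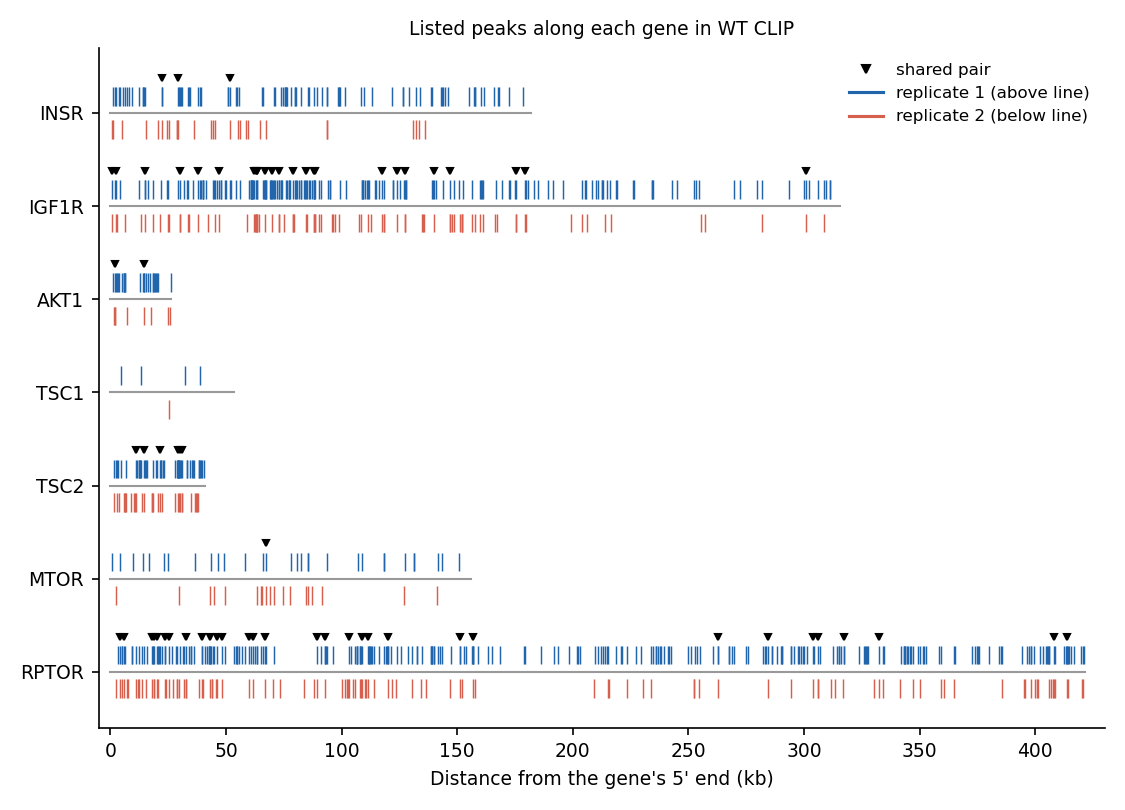
Position of every listed peak along each gene, as distance in kb from the gene's 5' end, with replicate 1 peaks as blue ticks above the line, replicate 2 peaks as red ticks below it and the 68 shared pairs as black triangles. The shared pairs of IGF1R and RPTOR gather towards the 5' end, and MTOR has a single pair.

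The strand column follows the genes closely, which limits what strand can show here. Peak numbers inside each gene ran without a gap, so every numbered peak between a gene's first and last was listed on the gene's own strand. The opposite strand of the 7 intervals held 3 entries in MTOR in replicate 1, 3 in MTOR in replicate 2 and 1 in RPTOR in replicate 1. Each of these was a peak also listed on the gene's strand. In a GRCh38 annotation, opposite-strand genes overlap MTOR (among them ANGPTL7 and MTOR-AS1) and also RPTOR, TSC1, TSC2, AKT1 and IGF1R. On the same strand, AC118658.1 and MIR4714 overlap IGF1R, and any peaks in them were counted for IGF1R. Rows were repeated evenly within a gene: once per peak in MTOR, 2 times in RPTOR and INSR and 3 times in TSC1 and TSC2. AKT1 had 3 rows per peak except for 1 replicate 1 peak and 2 replicate 2 peaks near its 5' end, which had 2. IGF1R had 1 row per peak except for 1 replicate 2 peak, which had 2. Whether strand came from the reads or from gene models was not tested, so sense and antisense RNA cannot be told apart in these genes.

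The overlap of the lists asks how far the replicates placed peaks on the same bases of these genes. Of the replicate 2 entries in the 7 genes, 95 of 286 (33.2%, exact binomial 95% interval 27.8 to 39.0) overlapped a replicate 1 entry, against 28.8% over the whole replicate 2 list. Of the replicate 1 entries, 94 of 649 (14.5%, 11.9 to 17.4) overlapped replicate 2, against 8.88% over the whole replicate 1 list. The first share is near its background. The second is above it. The genes also held a larger part of the replicate 2 list than of the replicate 1 list (43.6 and 30.8 per 10000), and the part of this in the overlap was not tested.

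The genes were unlike in this measure. RPTOR, the raptor gene, had 45 of 112 replicate 2 entries overlapping (40.2%, 31.0 to 49.9), and IGF1R had 34 of 88 (38.6%, 28.4 to 49.6). TSC2 had 9 of 30 (30%, 14.7 to 49.4), AKT1 had 2 of 8 (25%, 3.19 to 65.1) and INSR had 4 of 28 (14.3%, 4.03 to 32.7). MTOR had 1 of 19 (5.26%, 0.133 to 26.0), and TSC1 had 0 of 1, which allows anything up to 97.5%. The interval of RPTOR lay above 28.8% and that of MTOR below it, while those of the other genes held it. From the side of replicate 1 the shares were 17.2% in RPTOR (12.9 to 22.2), 17.4% in IGF1R (12.2 to 23.7) and 19.1% in TSC2 (9.15 to 33.3), all with intervals above 8.88%. They were 7.41% in AKT1, 4.49% in INSR and 3.33% in MTOR, with intervals that held 8.88%, and 0 of 4 in TSC1 (up to 60.2%). These intervals treat neighbouring peaks as independent, and 75.2% of replicate 1 and 55.9% of replicate 2 entries in the genes had another of the list within 1 kb in the gene.

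**Figure D3:**
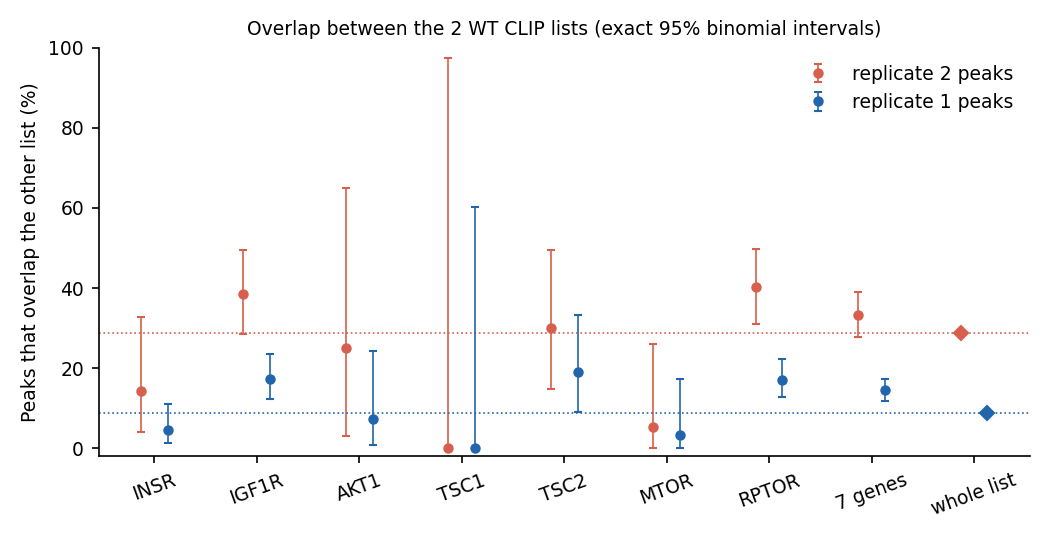
Share of listed peaks that overlap a peak of the other WT CLIP list, in percent, for each gene, the 7 genes together and the whole lists (diamonds and dotted lines), with exact 95% binomial intervals. RPTOR and IGF1R lie at 40.2% and 38.6% of replicate 2 peaks, and MTOR at 5.26%.

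Of the 191 replicate 2 entries of the 7 genes that did not overlap, 33 (17.3%, 12.2 to 23.4) lay within 100 bases of a replicate 1 entry on the same strand, against 12.1% of such entries over the whole list. Within 1 kb it was 141 (73.8%, 67.0 to 79.9), against 56.3%. Their median distance was 475 bases, against 782 bases. By gene, 54 of 67 such entries in RPTOR, 43 of 54 in IGF1R and 18 of 21 in TSC2 lay within 1 kb, with intervals above 56.3%. In AKT1 it was 5 of 6, in MTOR 9 of 18 and in INSR 12 of 24, with intervals that held 56.3%, and in TSC1 it was 0 of 1. Peak density differs between these genes too, and its part in the distances was not tested.

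Fold enrichment, the caller's ratio over its background, was modest throughout. Its median in the 7 genes was 3.50 in replicate 1 and 3.88 in replicate 2, with quartiles of 3.08 and 4.37 and of 3.23 and 4.81, against 3.12 (2.76 to 3.94) and 3.81 (3.17 to 4.60) over the whole lists. No entry in these genes exceeded 9.74 in replicate 1 or 10.4 in replicate 2, both in RPTOR, while the whole lists reached 192 and 57.7. At least 5-fold were 75 of 649 replicate 1 entries (11.6%, against 9.16% of the whole list) and 64 of 286 replicate 2 entries (22.4%, against 18.0%). RPTOR supplied 34 and 32 of them and IGF1R 22 and 18. TSC1 had none, and its peaks lay between 3.24 and 4.60.

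**Figure D4:**
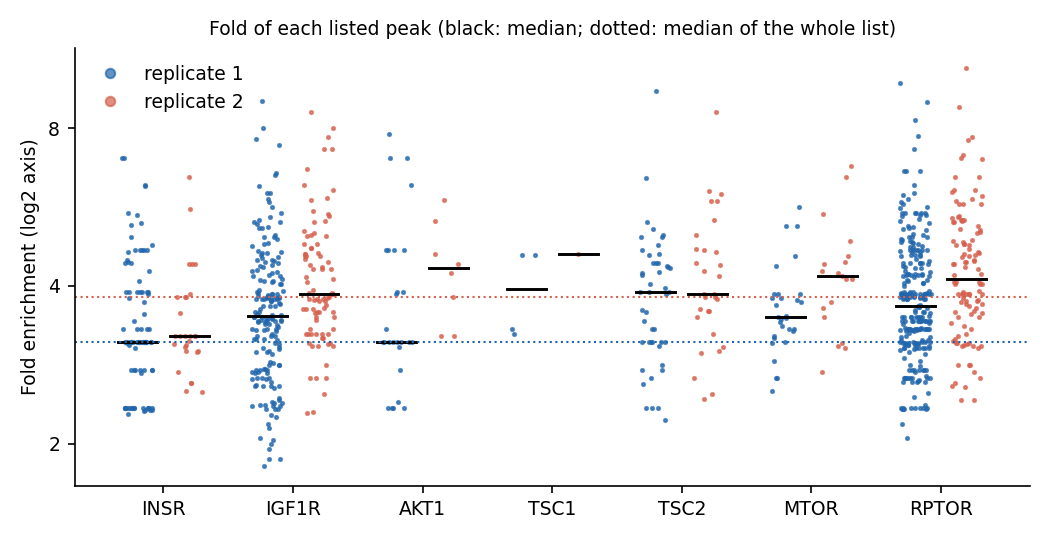
Fold enrichment of every listed peak (log2 axis) in each gene for replicate 1 (blue) and replicate 2 (red), with medians as black lines and the medians of the whole lists as dotted lines. INSR has medians of 3.12 and 3.21, the first shared with AKT1, and rows of points at equal height are peaks with identical values.

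Across the genes the replicate 1 medians ran from 3.12 in INSR and AKT1 to 3.95 in TSC1, and the replicate 2 medians from 3.21 in INSR to 4.60 in TSC1. Many weak peaks carried identical values. In replicate 1, 40 entries of the 7 genes had a fold of 3.12 with a −log10 p of 3.68, which was the commonest combination there (6.16% of the 649). INSR supplied 20 of these 40, AKT1 8, TSC2 6, RPTOR 5 and MTOR 1, while IGF1R and TSC1 had none. Over the whole replicate 1 list 14.05% of entries carried these values. The 649 entries held 345 different combinations.

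Stronger peaks overlapped more often in the whole lists, and in the 7 genes the contrast was smaller. At 5-fold and above, 26 of 64 replicate 2 entries of the genes overlapped (40.6%, 28.5 to 53.6), against 46.2% of the whole list at that fold. Under 5-fold it was 69 of 222 (31.1%, 25.1 to 37.6), against 25% of the whole list. In replicate 1 the shares were 16 of 75 (21.3%, 12.7 to 32.3) at 5-fold and above, against 26.2% of the whole list, and 78 of 574 (13.6%, 10.9 to 16.7) under it, against 7.13%. IGF1R ran the same way as the whole lists, with 7 of 22 (31.8%) and 25 of 162 (15.4%) in replicate 1 and 9 of 18 and 25 of 70 in replicate 2. RPTOR had 6 of 34 (17.6%) at 5-fold and above and 40 of 234 (17.1%) under it in replicate 1. In replicate 2 it had 11 of 32 (34.4%) and 34 of 80 (42.5%). In each of these comparisons of IGF1R and RPTOR the intervals overlapped. In replicate 2 TSC2 had 5 of 7 at 5-fold and above and 4 of 23 under it. The difference between the genes and the lists was not tested.

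INSR encodes the receptor that insulin binds. Its interval lies on the minus strand of chromosome 19, 7112266 to 7294011, 182 kb long. It held 89 replicate 1 and 28 replicate 2 entries, and 22 of the 28 lay in the 5' 50% of the gene, against 54 of the 89. Its 3 shared pairs all lay there, at 22.4, 29.4 and 51.6 kb from the 5' end. The pair with the higher folds was 7242408 to 7242437 in replicate 1 (5.27-fold) and 7242419 to 7242450 in replicate 2 (5.61-fold), 19 bases of which were common. The other pairs had folds of 3.12 and 3.81, and of 2.76 and 3.56. The replicate 1 peak with the highest −log10 p, at 7164667 to 7164696 (7.02-fold, −log10 p 10.6), was 1489 bases from the nearest replicate 2 peak. A second peak, at 7278815 to 7278845, had the same values and no overlapping partner either. The strongest replicate 2 peak, 7238917 to 7238975 (6.46-fold, −log10 p 8.81), missed its nearest replicate 1 peak by 40 bases.

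IGF1R encodes the receptor for insulin-like growth factors, related to INSR in sequence. It lies on the plus strand of chromosome 15, 99192200 to 99507759, 316 kb long. Its peaks lay towards the 5' end in both lists. In the 5' 50% of the gene lay 130 of 184 replicate 1 entries (70.7%), 69 of 88 replicate 2 entries (78.4%) and 22 of 25 pairs. After a pair at 179 kb from the 5' end only 1 more followed, at 301 kb. The window with the most pairs, 60 to 70 kb from the 5' end, held 5 pairs among 20 replicate 1 and 8 replicate 2 entries. It was the fullest window of the 7 genes in replicate 1. With the next 20 kb, a stretch picked after its values were seen, it held 11 of the 25 pairs and 53 replicate 1 entries (28.8%) in 9.51% of the gene's length.

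The pair of IGF1R with the highest lower fold was 99280862 to 99280904 in replicate 1 (8.02-fold, −log10 p 22.5) and 99280865 to 99280913 in replicate 2 (7.30-fold, −log10 p 14.2). It ranked 257 of the 13758 deposited pairs by that value, the highest rank of any pair in the 7 genes. A pair at 124 kb from the 5' end, 99315975 to 99316006 in replicate 1, had 7.45-fold and 5.90-fold. Another lay 0.59 kb from the 5' end, 99192772 to 99192806 in replicate 1 and 99192768 to 99192806 in replicate 2, with 4.03-fold and 5.85-fold and −log10 p of 13.7 and 12.7. The entry with the highest −log10 p of the 7 genes was also in IGF1R. It was a replicate 1 peak at 99268618 to 99268659 with 9.03-fold and a −log10 p of 23.0, above 99.7% of its list, and no replicate 2 peak came nearer than 1499 bases. The strongest replicate 2 peak, 99280205 to 99280235 (8.59-fold), overlapped a weak replicate 1 peak of 2.27-fold.

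AKT1 encodes the serine/threonine kinase that relays receptor signals to the TSC complex. It is the shortest of the genes, 26.4 kb on the minus strand of chromosome 14, 105235686 to 105262080. Peaks covered 5.71% of its bases in replicate 1, the highest of the 7 genes, and 1.28% in replicate 2. Both lists placed a peak on 105247675 to 105247713, 14.4 kb from the 5' end, with 7.80-fold in replicate 1 and 4.41-fold in replicate 2, and this was the strongest replicate 1 peak of the gene. The other pair, 105259852 to 105259953 in replicate 1 and 105259855 to 105259923 in replicate 2, had 3.87-fold and 3.81-fold. The strongest replicate 2 peak, 105236433 to 105236465, lay 25.6 kb from the 5' end, near the 3' end of the interval, with 5.85-fold and a −log10 p of 12.7. The nearest replicate 1 peak was 435 bases away.

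TSC1 and TSC2 encode hamartin and tuberin, the partners of the complex that restrains mTOR complex 1. TSC1, on the minus strand of chromosome 9, 135766735 to 135820020, held 4 replicate 1 entries and 1 replicate 2 entry over 53.3 kb. The replicate 1 peaks started at 135781420 (3.31-fold), 135787691 (3.24-fold), 135806879 (4.58-fold) and 135815328 (4.58-fold). The single replicate 2 peak was 135794662 to 135794691 (4.60-fold), 6941 bases from the nearest replicate 1 peak. No base of TSC1 was listed in both replicates.

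TSC2, on the plus strand of chromosome 16, 2097990 to 2138713, is shorter (40.7 kb) and held 47 and 30 entries. Peaks covered 5.61% of it in replicate 1 and 3.29% in replicate 2. Median widths were 41 and 40.5 bases, against 30 and 31 bases over the whole lists. Its 6 pairs lay between 11.1 and 30.8 kb from the 5' end. The pair with the highest lower fold, 2119252 to 2119304 in replicate 1 and 2119255 to 2119319 in replicate 2, had 4.68-fold and 5.01-fold and 50 bases in common. A pair at 2109041 to 2109103 had 4.42-fold in replicate 1 and 8.60-fold in replicate 2, where it was the strongest peak of the gene. At 2127009 to 2127089 the peaks shared 77 bases, with 3.07-fold and 5.80-fold. In 5 of the 6 pairs the fold was higher in the replicate 2 list. Over all 13758 deposited pairs it was higher in replicate 2 in 7330 and in replicate 1 in 6428. The strongest replicate 1 peak, 2130987 to 2131057 (9.43-fold), had no replicate 2 peak within 1591 bases.

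MTOR encodes the kinase itself, and RPTOR the subunit that brings it its substrates. MTOR lies on the minus strand of chromosome 1, 11166588 to 11322608. Its replicate 2 peaks were gathered in the middle, with 12 of 19 in the third of 5 equal parts, while the 30 replicate 1 peaks were spread as 7, 5, 8, 4 and 6 from the 5' end. The only pair was 11255202 to 11255232 in replicate 1 (3.21-fold) and 11255179 to 11255231 in replicate 2 (3.11-fold), 67.4 kb from the 5' end. Both of its peaks were also listed on the opposite strand. The strongest peaks did not overlap. In replicate 1 it was 11195327 to 11195361 (5.65-fold, −log10 p 8.01), 21 bases from a replicate 2 peak of 4.12-fold. In replicate 2 it was 11244762 to 11244802 (6.77-fold, −log10 p 10.2), 342 bases from a replicate 1 peak of 3.50-fold.

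RPTOR, on the plus strand of chromosome 17, 78518625 to 78940173, is the longest gene (422 kb) and held the most pairs, 31. Replicate 1 peaks were spread over it, with 68, 59, 37, 50 and 54 in 5 equal parts from the 5' end. Replicate 2 peaks numbered 41, 28, 8, 13 and 22 in the same parts, and the pairs 15, 8, 0, 6 and 2. So 23 of the 31 pairs lay within 157 kb of the 5' end, followed by 106 kb with none. The longest stretch without a replicate 2 peak in this gene was 51.8 kb, while the longest without a replicate 1 peak was 18.5 kb.

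The RPTOR pair with the highest lower fold was 78824761 to 78824792 in replicate 1 (8.98-fold) and 78824762 to 78824791 in replicate 2 (6.47-fold), 306 kb from the 5' end. The midpoints of its peaks coincided. Pairs at 78536681 to 78536710 (5.72-fold and 7.59-fold) and 78607958 to 78607988 (5.43-fold and 7.01-fold) also exceeded 5-fold in both lists. The strongest replicate 2 peak, 78548281 to 78548323, had 10.4-fold and a −log10 p of 20.1, and its nearest replicate 1 peak was 576 bases away at 3.05-fold. The strongest replicate 1 peak, 78860256 to 78860294 (9.74-fold, −log10 p 16.1), lay 8 bases from a replicate 2 peak of 4.79-fold. In RPTOR 3 windows held the most pairs, 3 each, at 10 to 20, 40 to 50 and 60 to 70 kb from the 5' end.

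Over the 7 genes, 3 of the 14 strongest peaks, 1 for each gene and list, shared bases with the other list. They were the AKT1 peak of replicate 1 and the TSC2 and IGF1R peaks of replicate 2. The tied second peaks of INSR and TSC1 in replicate 1 had no overlap either. Over the whole lists, 26.2% of replicate 1 and 46.2% of replicate 2 entries at 5-fold and above overlapped. Of all entries it was 8.88% and 28.8%. The TSC1 peaks were under 5-fold. With so few strongest peaks, their overlap was not tested against these shares. Per 100 kb, TSC2 had 14.7 pairs, IGF1R 7.92, AKT1 7.58, RPTOR 7.35, INSR 1.65 and MTOR 0.641. The midpoints of the 68 pairs were a median of 5 bases apart, against 4 bases over all deposited pairs, and at most 37 bases. Median folds of the paired peaks were 4.14 in replicate 1 and 4.37 in replicate 2, against 4.11 and 4.23 over all pairs. In 64 of 68 pairs (94.1%, against 90.5%) the folds differed by at most 2-fold. Both folds reached 5 in 8 pairs (11.8%, against 13.9% of all deposited pairs), of which 4 were in IGF1R, 3 in RPTOR and 1 in INSR. The log2 folds of the 68 pairs were weakly related between the replicates (Pearson 0.175, and Spearman 0.158 on ranks), and less so than over all 13758 pairs (0.353 and 0.318). These are descriptions across sites that share their libraries, with no test of the difference. The highest lower fold was 7.30 in the 68 pairs and 46.8 over all pairs. The part of this narrower range in the lower correlations was not tested.

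**Figure D5:**
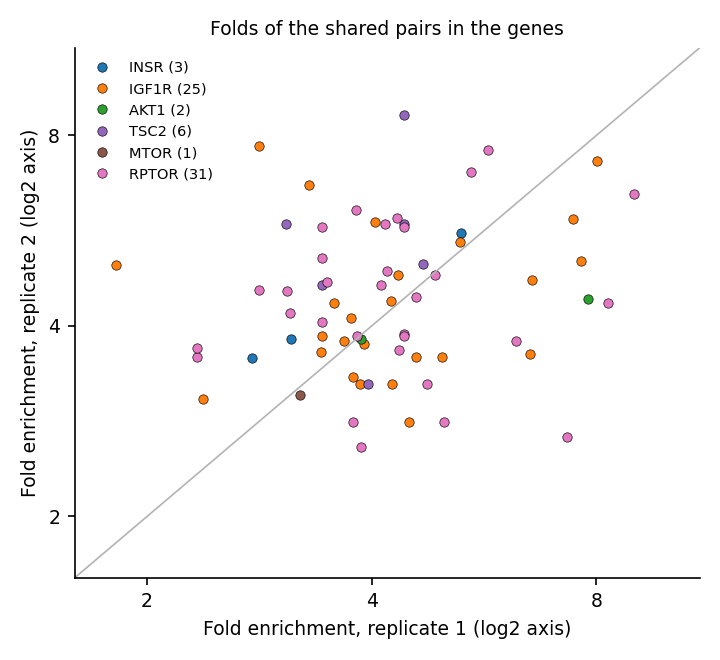
Fold enrichment of the 68 shared pairs in replicate 1 (horizontal) and replicate 2 (vertical), both on log2 axes, with the diagonal of equal fold and the number of pairs per gene in the legend. The points spread around the diagonal, with 29 higher in replicate 1 and 39 higher in replicate 2. Over all 13758 deposited pairs these numbers are 6428 and 7330. No pair of the 7 genes passes 7.30 in its lower fold.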

How the data were processed

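The authors deposited hg19 peak lists for both WT CLIP replicates and a list of peak pairs. The submitters' processing notes name, with no stated role, deepTools 3.2.1, HOMER 4.11.1, MACS2 2.1.1.20160309 and Novoalign 3.09.00. How strand was assigned is not stated there. Each deposited peak has an unadjusted −log10 p, a score derived from it and a fold (the ratio to a background that the caller set), called per library at a p threshold of 0.005, per the peak names in the files. The deposited pairs were the same-strand pairs sharing at least 50% of the replicate 1 peak. The 8 count columns of the authors' table match no sample label and were not used, so no count test was run.

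Repeated rows were collapsed, giving 210878 and 65587 entries from 467329 and 148958 rows. Intervals are exact (Poisson for counts, Clopper-Pearson for shares), at 95%, and cover counting error only. All 7 genes were named. The peaks named in each gene were the strongest by −log10 p in each list, which was also the highest by fold, the pair with the highest lower fold, and the 10-kb window with the most pairs. Other peaks, pairs and windows were chosen after their values were seen. The members and lists were chosen with earlier results of these data known. Overlap counting was checked on simulated peaks. The work used scipy 1.17.1, pandas 2.3.3 and numpy 2.4.6 under Python 3.11.15, with matplotlib 3.10.9 for plots.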

Additional observations from a re-analysis of the deposited data

How the results depend on the processing

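Counts of entries depend on what is kept. The 649 replicate 1 entries of the 7 genes became 75 and the 286 replicate 2 entries 64 at 5-fold and above, 1161 and 503 with repeated rows kept, and 436 and 160 in the stronger 50% of each list. The midpoint rule changed neither count, and ignoring strand gave 653 and 289. The overlapping share of replicate 2 entries, 33.2%, was 23.8% with 50% of the replicate 1 peak and 23.1% with 50% of both peaks required, since fewer pairs qualify. Within 100 bases, an alternative chosen after seeing the data, it was 44.8%, against 37.5% of the whole replicate 2 list. In the stronger 50% it was 33.8%. Whole-list shares were not computed for the other alternatives, so those shares cannot be set against the 28.8% for 1 shared base. The median fold, 3.50 and 3.88, was 3.87 and 4.35 among overlapping entries. The 68 pairs became 8 with both folds at 5 or above, 96 with 1 shared base and 66 with 50% of both peaks. The part of the lists held by the genes, 37.2 per 10000, was 30.8 to 43.6 with 1 replicate left out and 45.1 in the stronger 50%. By gene, INSR moved from 4.24 to 2.61 per 10000 (mean of both lists) in the stronger 50%, below MTOR, which moved from 2.16 to 2.87. In replicate 2 INSR also fell below MTOR in density there and at 5-fold and above, the only settings besides the reported one in which density order was computed. No paired analysis was possible because no count column could be tied to a sample, and the planned count tests were not run. Few peaks limit TSC1 (4 and 1 entries), AKT1 (27 and 8) and MTOR (30 and 19) most, and library depth is unknown here.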
